A study of Mus musculus with 24 samples.

Results

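The gene set described here holds 10 mouse genes, 8 redox enzymes that are targets of the transcription factor NRF2 or relatives of such targets (Cbr1, Nqo1, Hmox1, Gclm, Gclc, Txnrd1, Srxn1 and Prdx1), the carbonyl reductase Cbr3, and Nfe2l2, which encodes NRF2 itself. Members were chosen by symbol: all probe sets of the Affymetrix chips MOE430A and MOE430B whose platform annotation gave 1 gene symbol from this list. This found 17 probe sets for 9 of the 10 genes, out of 45037 probe sets and 18193 genes with such a symbol in the whole series. Prdx1, a peroxiredoxin that removes hydrogen peroxide, was not among them, because its 5 probe sets carried a second symbol, and no values are given for it. The set was put together with results of these arrays known: Cbr3 was selected on its signals in monolayer and suspension at D2 and in monolayer at D1 and D2, so its values are given as a description, with no test, standard error or interval, and whether it passed is counted only to account for every member.

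The cells were P19 cells, a mouse embryonal carcinoma line described in the labels as a pure clonal culture, grown in alpha medium with fetal bovine and calf serum. The 4 groups were monolayer culture at D1, suspension culture at D1, monolayer culture at D2 and suspension culture at D2, with 3 RNA samples in each; suspension culture makes the cells grow as aggregates, and the question asked was how aggregation changes gene expression. What D stands for is not given, and no inducer, transgene or altered allele is named for any group. Each of the 12 total RNAs was hybridised to both chips, and the labels do not say whether the samples of a group were separate cultures, so p-values measure the spread between these samples, which may be technical.

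NRF2 is held at a low level in unstressed cells by KEAP1, which presents it to a ubiquitin ligase built on CUL3. Electrophiles and oxidants disable KEAP1, and NRF2 then pairs with a small MAF protein at antioxidant response elements in DNA and raises transcription of genes for glutathione synthesis, the thioredoxin system, quinone and carbonyl reduction and heme breakdown. CBR1 and CBR3 are closely related short-chain dehydrogenases that use NADPH to reduce carbonyl groups, and CBR1 is known for reducing quinones, prostaglandins and anthracycline drugs. In human cells the CBR3 gene has been described as an NRF2 target. In pluripotent cells, as in others, these enzymes form part of the defence against oxidants and reactive carbonyls.

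The DNA before the starts of Cbr3 and Cbr1 is shown because these are neighbouring genes of 1 family whose signals differed in pattern across the cultures. Both windows are the 250 bases before the annotated start, from RefSeq on build GRCm38.p6, written 5′ to 3′ on the gene's own strand. The Cbr3 window lies at chr16:93682969-93683218 on the plus strand and the Cbr1 window at chr16:93607587-93607836, also on the plus strand.
Cbr3: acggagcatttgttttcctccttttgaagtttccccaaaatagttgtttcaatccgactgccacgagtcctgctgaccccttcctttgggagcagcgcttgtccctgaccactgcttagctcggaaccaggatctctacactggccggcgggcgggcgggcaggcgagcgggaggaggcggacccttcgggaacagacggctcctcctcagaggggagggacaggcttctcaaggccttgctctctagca
Cbr1: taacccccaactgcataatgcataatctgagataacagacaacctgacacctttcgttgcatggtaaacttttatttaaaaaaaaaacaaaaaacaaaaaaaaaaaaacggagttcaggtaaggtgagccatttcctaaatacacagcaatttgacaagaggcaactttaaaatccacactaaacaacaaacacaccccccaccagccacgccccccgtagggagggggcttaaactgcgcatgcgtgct
The Cbr3 window was 59.6% G or C with 14 CpG dinucleotides, and the Cbr1 window was 41.6% G or C with 6. Neither window, nor the 50 bases after each start, held TGACNNNGC, the core letters of an antioxidant response element, or TGAGTCA, an AP-1 site that can form part of one, on either strand; hence no letter above is in capitals. In the annotation order on this chromosome the genes ran Clic6, Runx1, Setd4, Cbr1, Cbr3, with Dop1b and Morc3 further on.

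The same search was made in the promoter windows of the other members, since these letters are what NRF2 is known to bind. Windows (250 bases before to 50 after the start) were matched by symbol for 8 of the 10 members; Hmox1 and Gclc had none. TGACNNNGC was found in 5 of the 8 and TGAGTCA in 2 of the 8, both of which also held TGACNNNGC. Over all 32851 windows of the table, 12.4% held TGACNNNGC and 5.20% held TGAGTCA, searched on both strands; counted per gene, as for the members, the shares were 14.0% and 5.95% of 27025 genes. The matches below are in capitals with 10 bases on each side, on the gene's own strand.
Gclm: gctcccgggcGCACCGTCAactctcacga
Txnrd1: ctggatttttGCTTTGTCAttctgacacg
Srxn1: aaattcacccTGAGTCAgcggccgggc
Prdx1: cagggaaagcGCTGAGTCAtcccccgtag
Nfe2l2: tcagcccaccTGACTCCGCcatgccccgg
The Gclm match (chr3:122245413-122245441, plus strand) and the Txnrd1 match (chr10:82859104-82859132, plus strand) read TGACNNNGC on the opposite strand, 134 and 92 bases before the start. The Srxn1 line (chr2:152105469-152105495, plus strand) shows TGAGTCA 45 bases before the start, 1 of 2 such matches there. In Prdx1 (chr4:116685456-116685484, plus strand) TGACNNNGC on the opposite strand and TGAGTCA overlap, and in Nfe2l2 (chr2:75704885-75704913, minus strand) TGACNNNGC lies 240 bases before the start. A match describes letters only, and the absence of one in the Cbr3, Cbr1 and Nqo1 windows says only that these letters were not in that stretch.

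Cbr3 had a low signal in monolayer cells at D2 and a signal near the middle of the chip in the other 3 groups. Values are MAS5 signal intensities on a linear scale, 1 per probe set and array. In monolayer at D1 the samples read 1252, 562 and 1034, and in suspension at D1 they read 1021, 825 and 1202. In monolayer at D2 they read 91.4, 83.0 and 138, and in suspension at D2 1195, 507 and 755. All 3 monolayer D2 samples lay below all 9 others, and the other 3 groups overlapped one another. The group means were 950 ± 353 in monolayer at D1, 1016 ± 189 in suspension at D1, 104 ± 29.7 in monolayer at D2 and 819 ± 348 in suspension at D2 (SD, n = 3 each).

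In rank, the Cbr3 probe set stood between the 15.7th and 22.4th percentile of its array in monolayer at D2 and between the 44.5th and 68.2nd in the other samples. Its order of group means was suspension D1, monolayer D1, suspension D2 and monolayer D2, and the samples of the first 3 overlapped. The mean signal in suspension at D2 was 7.86 times that in monolayer at D2, and the mean in monolayer at D1 was 9.11 times that in monolayer at D2. On the log2 scale used for fitting, to which an offset of 51.0 was added on this chip and which therefore understates folds of low signals, suspension stood above monolayer at D2 by 2.43, a 5.37-fold difference. In monolayer, D2 minus D1 was -2.64 on the same scale, a 6.22-fold lower level.

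The comparisons of Cbr3 that leave out monolayer at D2 were smaller. At D1 suspension minus monolayer was 0.15 log2 units, and in suspension D2 minus D1 was -0.36. The difference between the culture effects at D2 and at D1, which again uses the monolayer D2 values, was 2.28 log2 units. Cbr3 entered the tests through the groups where it was high, as 7 of its 12 arrays exceeded the chip median of 599.8 and none of these 7 was from monolayer at D2. No detection call was used, so the monolayer D2 signals are low values and not a statement that the transcript was absent.

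The arrays were grouped into 3 batches, called wash batches here, by the station and hybridisation time in the scanner records. Each batch held 1 sample of every group. The batches followed the replicate numbers, except that suspension D2 sample 2 was in batch 1 and sample 1 in batch 2. On MOE430A deviations from group means correlated at a median of 0.19 within a batch and 0.23 within a replicate number. Cbr3 could also be compared inside each batch. Suspension minus monolayer at D2 was 1.97, 3.22 and 2.09 log2 units in the 3 batches. In monolayer, D2 minus D1 was -3.19, -2.19 and -2.52. The sign of both was fixed by groups that do not overlap, so the batches show only the range of sizes. At D1 suspension minus monolayer was -0.28, 0.51 and 0.21.

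**Figure D1:**
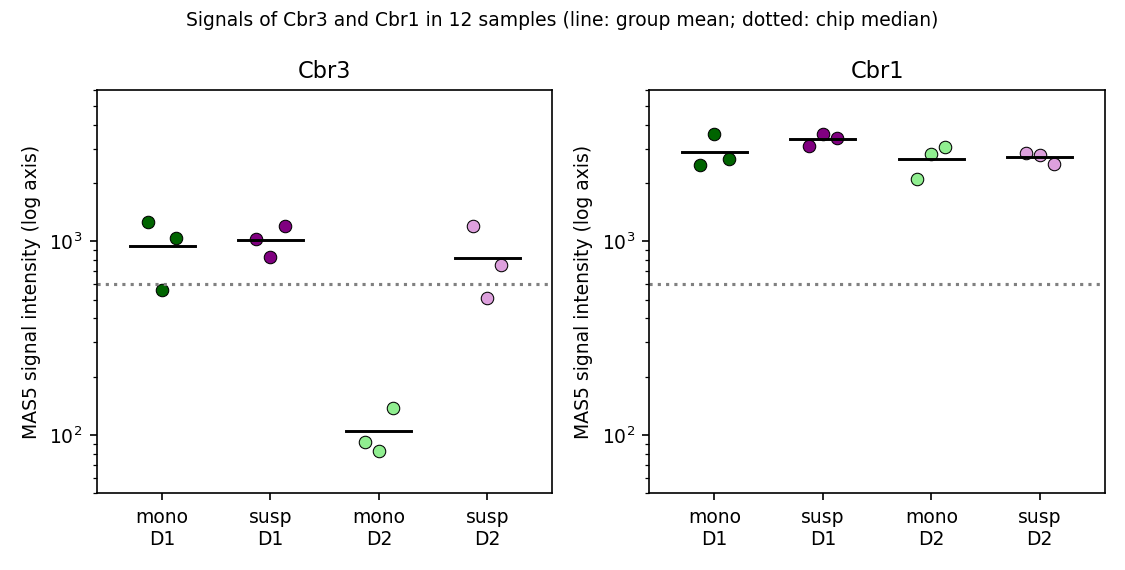
MAS5 signal intensity (log axis) of Cbr3 and Cbr1 in the 12 samples, by group; points are samples, bars group means and the dotted line the chip median of 599.8. The 3 monolayer D2 samples of Cbr3 sit between 83.0 and 138 while its other samples sit between 507 and 1252, and all samples of Cbr1 sit between 2099 and 3563.

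Cbr1, the neighbouring carbonyl reductase, did not show this low group. Its samples read 2460, 3559 and 2653 in monolayer at D1, 3084, 3563 and 3428 in suspension at D1, 2099, 2829 and 3070 in monolayer at D2, and 2862, 2778 and 2514 in suspension at D2. The monolayer D2 samples overlapped those of both groups they were compared with. Suspension minus monolayer at D2 was 0.04 log2 units (95% interval -0.34 to 0.43, limma adjusted p = 0.987), and D2 minus D1 in monolayer was -0.11 (95% interval -0.50 to 0.27, limma adjusted p = 0.930). The suspension samples at D2 all lay below those at D1, by 0.30 log2 units (95% interval -0.68 to 0.08, limma adjusted p = 0.847), which did not pass.

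Other genes near Cbr3 in the annotation order were set beside it at the same comparisons. Setd4, which precedes Cbr1 and encodes a SET domain protein, had mean signals of 740 ± 355, 866 ± 215, 622 ± 279 and 822 ± 137 in monolayer D1, suspension D1, monolayer D2 and suspension D2 (SD, n = 3). Morc3, a nuclear ATPase gene on the other side, had 1655 ± 160, 2095 ± 180, 1854 ± 140 and 2046 ± 357 in the same order. D2 minus D1 in monolayer was -0.21 ± 0.39 log2 units for Setd4 (limma adjusted p = 0.947), 0.16 ± 0.16 for Morc3 (limma adjusted p = 0.875), -0.13 ± 0.25 for the transcription factor gene Runx1 beyond Setd4 (limma adjusted p = 0.950) and -0.13 ± 0.24 for the chloride channel gene Clic6 beyond Runx1 (limma adjusted p = 0.948). Suspension minus monolayer at D2 was 0.46 ± 0.39 for Setd4 (limma adjusted p = 0.892), 0.13 ± 0.16 for Morc3 (limma adjusted p = 0.938), -0.12 ± 0.25 for Runx1 (limma adjusted p = 0.965) and 0.41 ± 0.24 for Clic6 (limma adjusted p = 0.814). None of these 4 neighbours passed in either comparison, and Setd4 and Clic6 lay on the same side of 0 as Cbr3 in both. Dop1b, between Cbr3 and Morc3, did not pass the filter on low signals and was not tested. Its mean signals were 433 ± 92.2, 436 ± 143, 390 ± 72.6 and 531 ± 30.9 in the same order of groups (SD, n = 3), lowest in monolayer D2.

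Across all 15 tested member probe sets, Cbr3 was the 1 that passed in suspension against monolayer at D2 and the 1 that passed in D2 against D1 in monolayer. Because Cbr3 was chosen with those 2 contrasts known, nothing is read from these counts; over all probe sets tested with limma at an adjusted p under 0.05, 0.0528% passed in the former and 0.00754% in the latter. In the other comparisons 0 of 15 member probe sets passed: suspension against monolayer at D1 (0.0528% of all probe sets), D2 against D1 in suspension (0%), culture averaged over the stages (0.256%), stage averaged over the cultures (0%) and the interaction (0%). At an unadjusted p under 0.05, the 14 member probe sets other than Cbr3 gave 0 at D1, 1 at D2, 3 for D2 against D1 in monolayer, 1 for the same in suspension, 0 for averaged culture, 1 for averaged stage and 2 for the interaction. Over all 26516 probe sets the counts at that level were 1376, 1772, 2116, 1555, 2125, 2753 and 966 in the same order.

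Groups whose samples did not overlap were counted as well. They occurred in 0 of 15 member probe sets for culture at D1 (9.53% of all), in 2 of 15 for culture at D2 (13.1% of all; 1 of 14 without Cbr3), in 4 of 15 for D2 against D1 in monolayer (12.4% of all; 3 of 14 without Cbr3) and in 3 of 15 for D2 against D1 in suspension (11.8% of all). Of the 14 member probe sets other than Cbr3, 9 lay below 0 for culture at D1 (52.7% of all probe sets), 6 for culture at D2 (49.2% of all), 13 for D2 against D1 in monolayer (50.9% of all) and 7 for D2 against D1 in suspension (46.5% of all). These probe sets share samples and several measure the same gene, and nothing particular to the members is read from the counts.

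**Figure D2:**
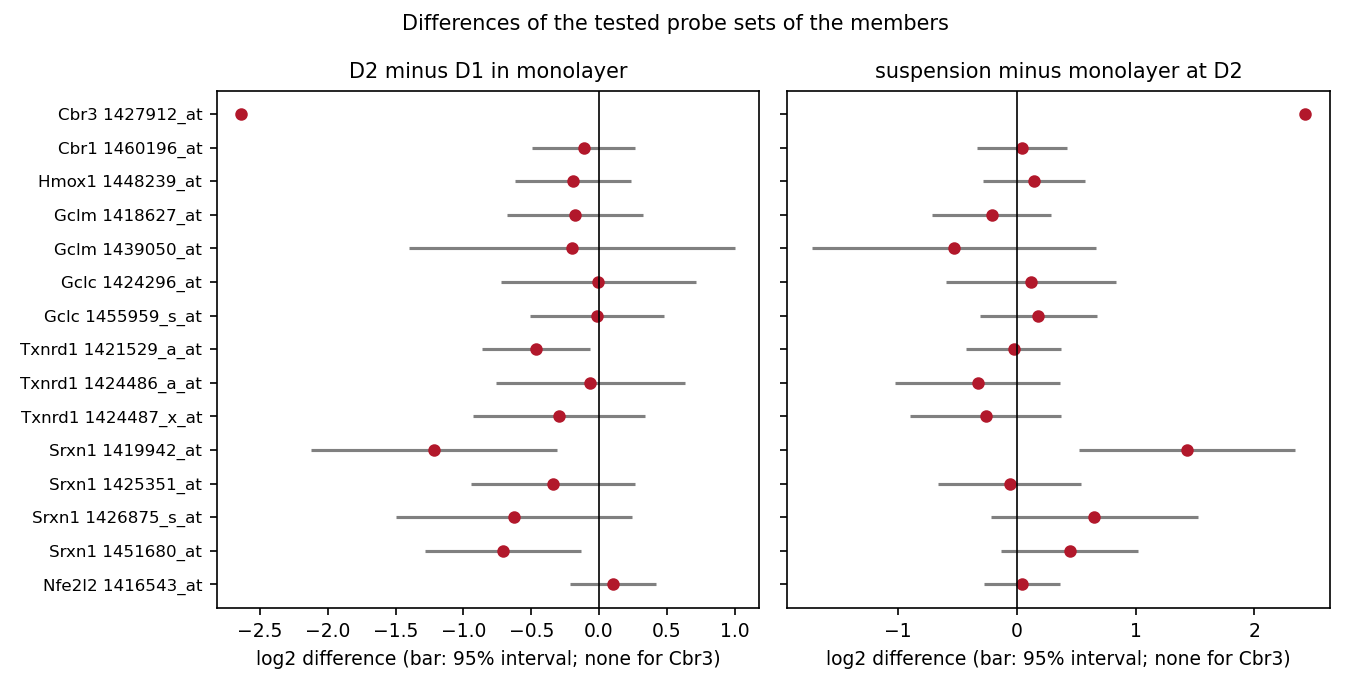
Log2 differences of the 15 tested member probe sets for D2 minus D1 in monolayer (left) and suspension minus monolayer at D2 (right), with 95% intervals as bars except for Cbr3, which was selected on these values. Cbr3 lies at -2.64 and 2.43, and the other 14 lie between -1.22 and 0.10 on the left and between -0.53 and 1.43 on the right.

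Srxn1, the sulfiredoxin that repairs over-oxidised peroxiredoxins, had its lowest group mean in monolayer at D2 on 3 of its 4 probe sets, but the 4 did not follow each other closely. Its brightest probe set, 1451680_at, read 1125, 1233 and 986 in monolayer at D1, 1113, 529 and 953 in suspension at D1, 712, 725 and 557 in monolayer at D2, and 799, 793 and 1212 in suspension at D2. In monolayer every D2 sample was below every D1 sample, and at D2 every suspension sample was above every monolayer sample. D2 minus D1 in monolayer was -0.71 ± 0.27 log2 units (95% interval -1.28 to -0.13, limma adjusted p = 0.522), and suspension minus monolayer at D2 was 0.44 ± 0.27 (95% interval -0.13 to 1.02). Neither passed, and within the 3 wash batches the first was -0.62, -0.73 and -0.77 and the second 0.15, 0.13 and 1.06. The signs were fixed by groups that do not overlap, so the batches show only the range of sizes.

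A further Srxn1 probe set, 1419942_at, gave wider differences in the same directions. It read 907, 646 and 872 in monolayer at D1, 486, 428 and 897 in suspension at D1, 530, 237 and 243 in monolayer at D2, and 1465, 1232 and 448 in suspension at D2. The monolayer samples did not overlap between the stages, while at D2 suspension sample 3 overlapped the monolayer samples. It was tested through its brighter groups, as 6 of its 12 arrays exceeded the chip median and none of these was from monolayer at D2, which favours a difference from that group. D2 minus D1 in monolayer was -1.22 ± 0.42 log2 units (limma adjusted p = 0.470), suspension minus monolayer at D2 was 1.43 ± 0.42 (limma adjusted p = 0.402), and the interaction was 1.88 ± 0.60 (limma adjusted p = 1.00). The probe set 1425351_at gave -0.34 and -0.06 for the first 2 of these and 1426875_s_at gave -0.63 and 0.65. Pairwise correlations among the 4 probe sets over the 12 samples ran from 0.04 to 0.61, so they do not give 1 measure of the transcript.

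Txnrd1, the cytosolic thioredoxin reductase that keeps thioredoxin reduced, was lower at D2 than at D1 in both cultures on its brightest probe set, by an amount that did not pass. The samples of 1421529_a_at read 9813, 5830 and 8974 in monolayer at D1, 9373, 7125 and 7781 in suspension at D1, 5723, 5810 and 5803 in monolayer at D2, and 6420, 5549 and 5114 in suspension at D2. In each culture the D2 samples lay below the D1 samples without overlap, in monolayer by a narrow gap because sample 2 at D1, at 5830, stood just above the highest D2 sample, at 5810. Averaged over the cultures, D2 minus D1 was -0.48 ± 0.13 log2 units (95% interval -0.77 to -0.20, limma adjusted p = 0.186). With monolayer D1 sample 2 left out it was -0.60 and passed (limma adjusted p = 0.0158), and with array weights it was -0.58 and passed (limma adjusted p = 0.0262). Within the wash batches it was -0.76, -0.08 and -0.61. The stages do not overlap in either culture, which fixes the sign in each batch, so the batches show only the range of sizes.

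The remaining Txnrd1 probe sets gave smaller stage differences, with wide intervals. For 1424486_a_at the averaged D2 minus D1 was 0.04 ± 0.23 log2 units (95% interval -0.45 to 0.53, limma adjusted p = 0.977). For 1424487_x_at it was -0.14 ± 0.21 (95% interval -0.59 to 0.31, limma adjusted p = 0.877), an interval that holds the -0.48 of the brightest probe set. Culture made little difference to the brightest probe set of Txnrd1, with suspension minus monolayer at 0.01 log2 units at D1 (95% interval -0.39 to 0.40) and -0.03 at D2 (95% interval -0.43 to 0.37). Averaged over D1 and D2, suspension minus monolayer was -0.44 ± 0.23 for 1424486_a_at (limma adjusted p = 0.664) and -0.42 ± 0.21 for 1424487_x_at (limma adjusted p = 0.648). Both were lower in suspension, and neither passed. The probe set 1424487_x_at was tested mainly through monolayer at D1, as 5 of its 12 arrays exceeded the chip median. These were 3 in monolayer D1, 1 in monolayer D2, 1 in suspension D1 and 0 in suspension D2. This favours lower values in suspension and at D2 for that probe set. The 3 probe sets correlated with each other over the 12 samples at 0.09 to 0.69.

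Gclc and Gclm encode the catalytic and the modifier subunit of glutamate-cysteine ligase, which makes the first and limiting step of glutathione synthesis. On 1424296_at Gclc read 2474, 1441 and 1077 in monolayer at D1, 1848, 2060 and 1044 in suspension at D1, 1521, 2034 and 1229 in monolayer at D2, and 1966, 2216 and 1123 in suspension at D2. Sample 3 was the lowest in every group, and all 4 groups overlapped. Suspension minus monolayer at D2 was 0.12 log2 units (95% interval -0.60 to 0.84), and D2 minus D1 in monolayer was -0.01 (95% interval -0.72 to 0.71). The second Gclc probe set, 1455959_s_at, ran from 841 to 1516 over the 12 samples and correlated with the first at 0.03. Its suspension samples at D2 all lay above those at D1, by 0.32 ± 0.23 log2 units (limma adjusted p = 0.872), which did not pass.

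Gclm read 2225, 1485 and 2475 in monolayer at D1, 1475, 1871 and 1322 in suspension at D1, 1860, 1497 and 2016 in monolayer at D2, and 1746, 1814 and 1120 in suspension at D2 on 1418627_at. The mean was lower in suspension at both stages, but the groups overlapped. Suspension minus monolayer averaged over D1 and D2 was -0.30 ± 0.17 log2 units (95% interval -0.65 to 0.06, limma adjusted p = 0.689). The Gclm probe set on MOE430B, 1439050_at, gave -0.26 ± 0.40 for the same comparison (limma adjusted p = 0.920) and held 1 low sample, suspension D2 sample 3, at 170 against 631 to 2228 in the other 11.

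Hmox1, the heme oxygenase that NRF2 induces strongly in many cell types, showed no difference between the groups beyond its spread. It read 1773, 2172 and 1876 in monolayer at D1, 1726, 2186 and 1743 in suspension at D1, 2143, 1709 and 1306 in monolayer at D2, and 2091, 2036 and 1524 in suspension at D2. All 4 groups overlapped. Suspension minus monolayer was -0.04 log2 units at D1 (95% interval -0.47 to 0.38) and 0.14 at D2 (95% interval -0.28 to 0.57), and D2 minus D1 was -0.19 in monolayer and -0.01 in suspension. All 4 of these intervals lay within 1 log2 unit of 0.

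Nqo1, the quinone reductase often used to read out NRF2 activity, was below the chip median in every sample and was not tested. Its probe set read 39.7, 287 and 384 in monolayer at D1, 116, 245 and 540 in suspension at D1, 257, 197 and 385 in monolayer at D2, and 433, 416 and 235 in suspension at D2. None of the 12 arrays exceeded the chip median, and all 4 groups overlapped. Samples of 1 group differed by more than the group means did.

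Nfe2l2 itself stayed within a narrow range. It read 2365, 2004 and 2296 in monolayer at D1, 2288, 2255 and 1992 in suspension at D1, 2189, 2630 and 2350 in monolayer at D2, and 2729, 2441 and 2214 in suspension at D2 on 1416543_at. The groups overlapped in all 4 pairwise comparisons, and the group means ran from 2178 to 2461. Suspension minus monolayer was 0.04 log2 units at D2 (95% interval -0.28 to 0.36), and D2 minus D1 in monolayer was 0.10 (95% interval -0.22 to 0.42). The second probe set of Nfe2l2, on MOE430B, read 40.2 to 209 and was not tested. NRF2 is controlled mainly through the stability of the protein, which arrays do not measure.

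**Figure D3:**
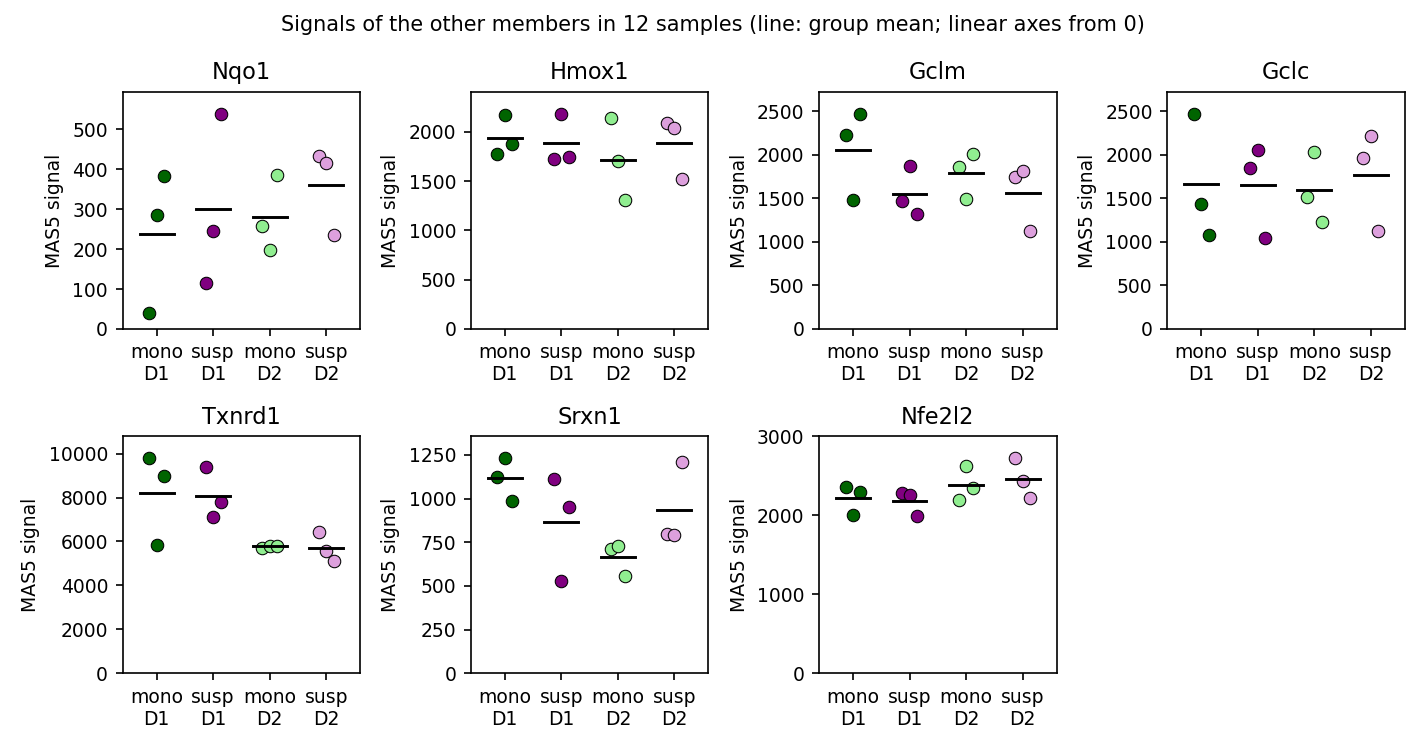
MAS5 signal intensity (linear axes from 0) of the 7 other measured members in the 12 samples by group, each on its brightest tested probe set (Nqo1 on its only, untested one); points are samples and bars group means. The Txnrd1 samples at D2 sit between 5114 and 6420 and those at D1 between 5830 and 9813, while the groups of Hmox1, Gclc, Gclm, Nqo1 and Nfe2l2 overlap.

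Set beside Cbr3 over the 12 samples, which share the low monolayer D2 group, the members followed it to different degrees. Pearson's r with Cbr3 on the log2 scale was 0.60 for Txnrd1, 0.52 for Srxn1, 0.29 for Cbr1, 0.19 for Hmox1, 0.00 for Gclc, -0.02 for Gclm and -0.16 for Nfe2l2. The 5 genes of the 12727 tested whose profile was most like that of Cbr3 were none of the members. They were Selenoh (r = 0.94), a nuclear selenoprotein gene; Tubb4b (r = 0.93), a beta-tubulin gene; Kif20a (r = 0.93), a kinesin gene of cytokinesis; Dnajb6 (r = 0.92), a co-chaperone gene; and Pcna (r = 0.92), the sliding clamp of DNA replication. These values describe 12 samples in 4 groups and carry no test.

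All 5 had their lowest group mean in monolayer at D2, with a much smaller drop than Cbr3. They were picked for likeness to Cbr3 over these same samples, so a low mean in that group follows from the choice. Selenoh had mean signals of 10465 ± 2084, 10520 ± 410 and 8981 ± 670 in monolayer D1, suspension D1 and suspension D2 against 6769 ± 475 in monolayer D2 (SD, n = 3). Tubb4b had 15360 ± 5011, 17387 ± 1575 and 12447 ± 2380 against 7527 ± 1011. D2 minus D1 in monolayer was -0.97 log2 units for Tubb4b, -0.65 for Kif20a, -0.61 for Selenoh, -0.53 for Pcna and -0.48 for Dnajb6, beside -2.64 for Cbr3.

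**Figure D4:**
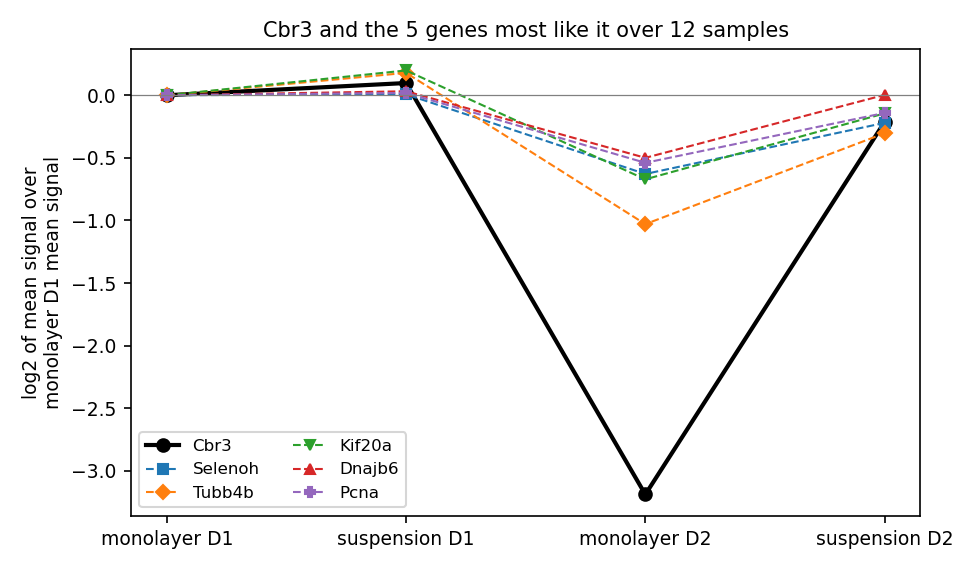
Log2 ratio of each group's mean signal to the mean signal in monolayer at D1, for Cbr3 (solid line) and the 5 genes most correlated with it (dashed lines), by group. All 6 dip in monolayer at D2, which follows from choosing the 5 by likeness to Cbr3. Cbr3 dips furthest, at a mean signal of 104 against 950 in monolayer at D1.

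The wider pathway was described through 9 lists of 119 genes, of which 80 were measured: partners and regulators of NRF2, glutathione synthesis and reduction, glutathione transferases, the thioredoxin and peroxiredoxin system, NADPH supply, heme and iron, carbonyl, quinone and aldehyde enzymes, superoxide and peroxide removal, and conjugate export. Of the 80, 1 rose and 0 fell in suspension against monolayer averaged over the stages, and 0 rose or fell in each of the other 6 comparisons at an adjusted p under 0.05 with limma; over all probe sets 0.256% passed for averaged culture and at most 0.0528% in the others, so few calls could fall in any list. The median of the 80 was -0.05 log2 units for averaged culture, beside -0.02 over all genes tested, and 0.04 for averaged stage, beside 0.01. The lists as a whole therefore sat close to all genes in both averaged comparisons. Calls of the listed genes other than Aldh2 are given for the main fit only, which took no replicate block. With that block averaged stage gave 595 calls over all probe sets, against 0 in the main fit, and the listed genes among them were not counted.

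Aldh2, the mitochondrial aldehyde dehydrogenase, was the 1 gene that rose in suspension. Its mean signals were 2186 ± 290 in monolayer and 3996 ± 655 in suspension at D1, and 3577 ± 1137 in monolayer and 7635 ± 2193 in suspension at D2 (SD, n = 3). The averaged difference was 0.97 ± 0.17 log2 units (limma adjusted p = 0.0313), with 0.85 at D1 and 1.08 at D2. It was the 1 call among 13 measured carbonyl, quinone and aldehyde genes, whose median was -0.08. Leaving out any single replicate 1 or replicate 3 sample took the adjusted p to between 0.0745 and 0.102, with a difference of 0.87 to 0.95, and leaving out a replicate 2 sample did not end the call.

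Among partners and regulators of NRF2, 0 of 10 measured genes passed in either averaged comparison. Keap1, the repressor of NRF2, had mean signals of 1298 ± 253 in monolayer and 1536 ± 67.5 in suspension at D1, and 1060 ± 145 and 1552 ± 181 at D2; the averaged difference of suspension minus monolayer was 0.39 ± 0.13 log2 units (limma adjusted p = 0.386). Sqstm1, which encodes the autophagy receptor p62 that can bind KEAP1, gave 0.56 ± 0.13 for D2 minus D1 (limma adjusted p = 0.131). Cul3 gave -0.25 ± 0.20 for averaged culture (limma adjusted p = 0.806), and Nfe2l1, the related factor NRF1, gave 0.41 ± 0.21 for averaged stage (limma adjusted p = 0.534).

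In glutathione synthesis and reduction, 0 of 10 measured genes passed, and the median for D2 minus D1 was -0.17 log2 units with 7 of 10 below 0, beside 0.01 and 47.7% for all genes. Ggct, a gamma-glutamylcyclotransferase, gave -0.65 ± 0.16 for averaged stage (limma adjusted p = 0.156) and the mitochondrial glutaredoxin Glrx5 gave -0.35 ± 0.14 (limma adjusted p = 0.382). For averaged culture, Gsr, glutathione reductase, gave -0.24 ± 0.10 (limma adjusted p = 0.578) and Gss, glutathione synthetase, gave -0.48 ± 0.25 (limma adjusted p = 0.664).

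Glutathione transferases were measured for 13 genes, with 0 passing; for averaged stage, where 0% of all probe sets passed, 11 of 13 lay above 0, beside 52.3% of all genes. Gsta4, which conjugates the lipid aldehyde hydroxynonenal, went the other way, with mean signals of 10623 ± 787 and 8575 ± 995 at D1 in monolayer and suspension against 6271 ± 798 and 5743 ± 614 at D2. Its averaged D2 minus D1 was -0.67 ± 0.10 log2 units (limma adjusted p = 0.0836), the lowest adjusted p of the 80 genes in that comparison. Gsto1, an omega-class transferase, gave -0.40 ± 0.12 for averaged culture (limma adjusted p = 0.328), and the microsomal enzyme Mgst3 gave 0.43 ± 0.14 for averaged stage (limma adjusted p = 0.282).

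The thioredoxin and peroxiredoxin list had 0 of 11 measured genes passing. Txn1, thioredoxin itself and the substrate of Txnrd1, had mean signals of 25674 ± 1237 and 26193 ± 1917 at D1 in monolayer and suspension and 18464 ± 3104 and 20997 ± 2914 at D2. Its D2 minus D1 was -0.41 ± 0.11 log2 units (limma adjusted p = 0.188), beside -0.48 for the brightest probe set of Txnrd1. Sesn2, a stress-induced sestrin, gave 0.77 ± 0.15 (limma adjusted p = 0.110). Prdx4, the peroxiredoxin of the endoplasmic reticulum, gave 0.25 ± 0.10 for averaged culture (limma adjusted p = 0.572), and Txnrd3, a testis-enriched thioredoxin reductase, gave -0.23 ± 0.17 (limma adjusted p = 0.790).

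The remaining lists had no further call. In NADPH supply (0 of 8), Pgd of the pentose phosphate pathway gave 0.35 ± 0.11 log2 units for averaged culture (limma adjusted p = 0.342) and Pgls of the same pathway gave 0.06 ± 0.13. The malic enzyme Me1 gave -0.30 ± 0.11 for averaged culture (limma adjusted p = 0.495) and the transhydrogenase Nnt gave -0.41 ± 0.17 (limma adjusted p = 0.586). In heme and iron (0 of 6), the heme synthesis genes Fech and Alas1 gave 0.29 ± 0.13 and 0.14 ± 0.17 for averaged stage, and Fth1, the ferritin heavy chain, gave 0.05 ± 0.12. Ptgr1, a reductase of prostaglandins and unsaturated aldehydes, gave -0.73 ± 0.15 for averaged stage (limma adjusted p = 0.116), and Ugdh, the UDP-glucose dehydrogenase, gave -0.37 ± 0.11 for averaged culture (limma adjusted p = 0.276).

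Superoxide and peroxide removal had 0 of 5 measured genes passing, and conjugate export 0 of 4. Sod2, the mitochondrial superoxide dismutase, gave -0.24 ± 0.10 log2 units for averaged culture (limma adjusted p = 0.574), and the cytosolic Sod1 gave 0.14 ± 0.17 (limma adjusted p = 0.897). Oxr1, an oxidation resistance gene, gave -0.30 ± 0.18 for the same comparison (limma adjusted p = 0.714). Among the exporters, Abcc4 gave 0.63 ± 0.26 for averaged stage (limma adjusted p = 0.410), Abcc5 gave 0.27 ± 0.14 (limma adjusted p = 0.535) and Abcg2 gave 0.25 ± 0.10 for averaged culture (limma adjusted p = 0.559).

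**Figure D5:**
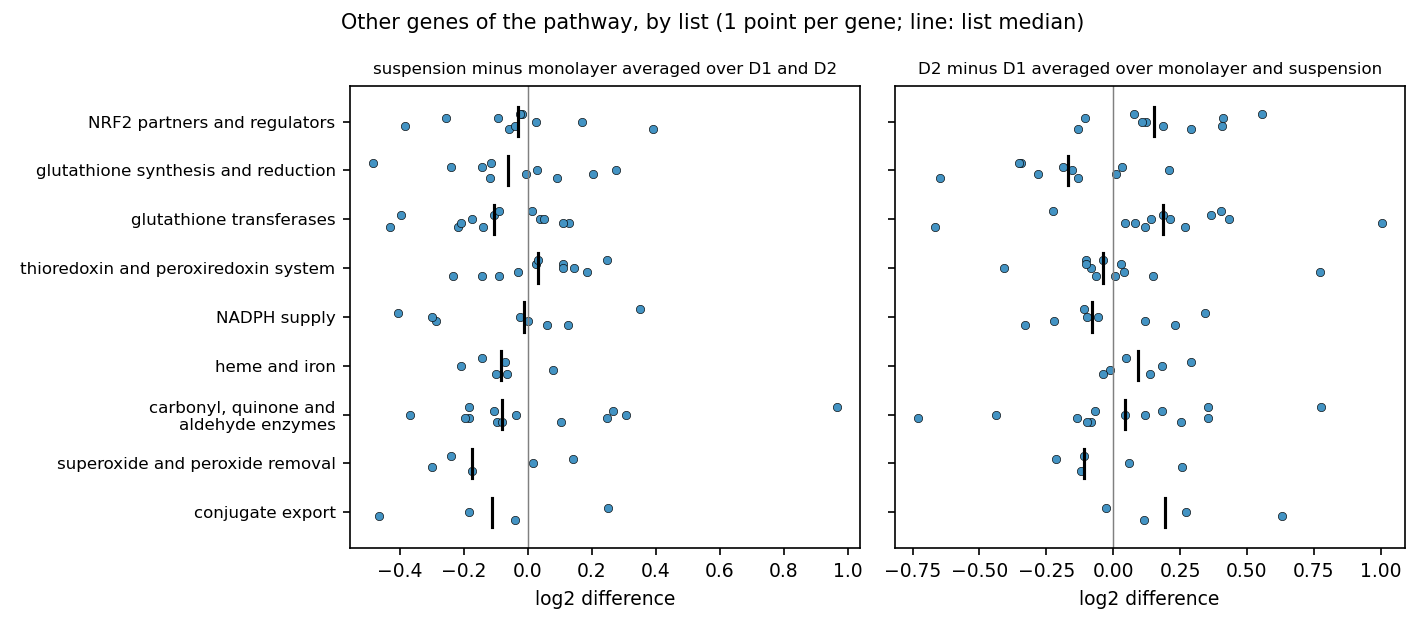
Log2 differences of the 80 measured pathway genes outside the member set, by list, for culture averaged over the stages (left) and stage averaged over the cultures (right); points are genes and bars list medians. Aldh2 stands alone at 0.97 on the left, and list medians lie between -0.18 and 0.03 on the left and between -0.17 and 0.19 on the right.

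The 2% trimmed mean was 1500 to 1501 on all 24 arrays. The scaling of the deposited values sets this, so it does not show whether the RNAs were alike. Of 8 markers of pluripotent embryonal carcinoma cells, 7 exceeded the chip median, with Pou5f1 at the 98.9th percentile and Zfp42 at the 25.0th, and their summed signals ran from 87624 to 103816, 80800 to 91420, 89515 to 105801 and 86795 to 92135 in monolayer D1, suspension D1, monolayer D2 and suspension D2. Above the median were 3 of 8 fibroblast markers (summed signal 3304 to 4444 in monolayer D2 and 3089 to 5371 in the other groups), 1 of 6 blood cell, 1 of 5 neuron, 1 of 5 skeletal muscle and 0 of 5 visceral endoderm markers. No marker was at 0, the lowest reading being 8.11 for Myh3, and none of the 6 summed levels separated monolayer D2, where Cbr3 was low, from all other groups. The mean 3′ to 5′ signal ratio of beta-actin on MOE430A was 1.12 in monolayer D2 and 1.09 to 1.25 in the others. The mean 18S ribosomal control signal there was 34069 in monolayer D2 and 17402 to 41197 in the others. Both were highest in suspension D1 and lowest in monolayer D1. On MOE430B the beta-actin ratio was 1.29 in suspension D1 and 1.01 to 1.07 in the others. The Gapdh ratio there was 0.83 in suspension D1 and 0.84 in monolayer D1. These controls therefore differed in part with culture at D1, and what this does to the D1 comparison was not tested. In bulk RNA, fewer cells with a transcript and less of it per cell cannot be told apart.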

How the data were processed

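Total RNA of 12 P19 samples was read on 2 chips each, 24 arrays. The values the authors deposited are linear signal intensities; the submitters' processing notes name MAS5 as the tool, without its version, and the scaling was kept. The number of arrays, which carry no read depth, limits the precision. Signals became log2 values after adding the chip's 10th percentile (51.0 on MOE430A, 108.1 on MOE430B). Tests were run on probe sets above the chip median on 3 or more of 12 arrays (599.8 and 846.4); 15 of the 17 member probe sets passed, and 1 each of Nqo1 and Nfe2l2 did not. limma 3.58.1 in R 4.3.3 fitted 1 mean per group with pooled spread and a variance trend, for 7 comparisons with two-sided p-values adjusted by Benjamini-Hochberg over 26516 probe sets.

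Groups and replicate numbers came from the sample titles, and wash batches were inferred from the station and hybridisation time in the scanner records. Same-numbered samples of different groups deviated together with correlations between 0.10 and 0.39 for MOE430A and between 0.01 and 0.16 for MOE430B. Differently numbered samples gave -0.28 to 0.08 and -0.17 to 0.04, so same-numbered samples shared part of their deviation, most clearly on MOE430A. The correlations were weak and not above 0.1 in every pair, so the main fit did not take the numbers as pairing. It therefore ignores this shared part. Calls with a replicate block are given among the alternatives for the members and Aldh2, and as a count over all probe sets. For the other listed genes only the main fit is given, so that they did not pass holds for that fit. The members, gene lists and tests were chosen with earlier results of these data known. Named genes were all members, from each list any called gene and the 2 lowest p in each averaged comparison, and the 5 genes most correlated with Cbr3. A gene is represented by its brightest tested probe set. Scripts were tested on simulated data. Alternatives changed the normalization, offset, filter, blocks, weights and samples.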

Additional observations from a re-analysis of the deposited data

How the results depend on the processing

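Cbr3 was selected on its D2 and monolayer differences and its groups there do not overlap, so their direction could hardly turn. Their size and calls were favoured by the same selection, and the alternatives show only how far these move with the processing. Both averaged comparisons hold the monolayer D2 values that chose Cbr3. Its calls there were favoured too, and nothing is read from them. Suspension minus monolayer at D2 ran from 1.68 (offset of 4 times the 10th percentile) to 2.91 log2 units (offset of 1) over 21 alternatives, and D2 minus D1 in monolayer from -3.13 to -1.86. For suspension against monolayer at D2 the count of member probe sets called, 1, became 0 with the offset of 4 times the 10th percentile, with a filter at the 75th percentile, which removes Cbr3, and with the later wash run left out, an alternative chosen after seeing the data; leaving out 1 sample at a time gave 0 to 1, with 0 in 6 of 12. For D2 against D1 in monolayer the count of 1 became 0 with quantile normalization, the larger offset, no filter, the 75th-percentile filter, the wash batch as a block and the later wash run left out; leaving out 1 sample gave 0 to 1, with 0 in 10 of 12. For averaged culture the count of 0 became 1 (Cbr3) with an offset of 1, with the replicate block and with array weights, and leaving out 1 sample gave 0 to 1 (1 without suspension D2 replicate 2). For averaged stage it became 2 (Cbr3 and Txnrd1, the latter at a limma adjusted p of 0.0313 with the replicate block and 0.0262 with array weights) with the replicate block and with array weights, and leaving out 1 sample gave 0 to 2 (2 without monolayer D1 replicate 2). Over all probe sets, averaged culture gave 68 calls, 220 with the replicate block and 123 with array weights; averaged stage gave 0, 595 and 485, and 514 without monolayer D1 replicate 2. The Aldh2 call held in 12 of 22 alternatives (limma adjusted p 0.00759 to 0.426). Of 1414 recomputed differences of the members and Aldh2, 1376 moved by less than the spread between samples. Many of these could not move. With equal groups the blocks and the changed filters return the main difference. Leaving out a sample of a group outside a comparison of 2 groups does the same. The 1376 is therefore no measure of how stable the differences are. The cause of the shifts in counts and differences was not tested. Signals near the offset, such as Cbr3 in monolayer at D2, limit how exactly a fold can be given.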
